A study of Mus musculus with 44 samples.

Results

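The histone deacetylase genes other than Hdac3 were followed by RNA-seq in C57BL/6 mouse BMDMs, cultured macrophages that are grown out of bone marrow precursors. The members were the 10 genes Hdac1, Hdac2, Hdac4, Hdac5, Hdac6, Hdac7, Hdac8, Hdac9, Hdac10 and Hdac11, taken by symbol from the 24940 genes listed in each of 4 count tables, and all 10 passed the filter on low counts in every table. The study examined NCoR, the corepressor that carries HDAC3, in the response to KLA (Kdo2 lipid A, a ligand of the lipopolysaccharide receptor TLR4). RGFP966 is an inhibitor of HDAC3, so the members are the classical deacetylases that it is not aimed at. The question put to them here was how their transcripts stood in each condition and in the presence of RGFP966.

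The 44 libraries formed 22 groups of 2. The NCoR set held 24 libraries of BMDMs from NCoR flox/flox mice without Cre (WT) or with LysM-Cre (NKO), given vehicle, KLA, poly I:C, IFNβ or IL4 for 6 h or RANKL for 12 h. The names of the 4 RANKL libraries call them osteoclast cultures, whereas their cell type label reads BMDM as for the rest. The RGFP966 set held 6 libraries of wild-type BMDMs given vehicle (Veh), KLA, or KLA with RGFP966 (RGFP966_KLA). The Pgc1b set held 8 libraries from Pgc1b flox/flox mice without or with LysM-Cre (Pgc1b_flox and Pgc1b_flox_Cre), under vehicle or KLA, and the TBK1i set held 6 libraries of wild-type BMDMs with DMSO, DMSO and KLA, or KLA and TBK1i, which blocks the interferon-inducing kinase TBK1, each at 6 h. Per the methods the inhibitors were added with the serum starvation that preceded the ligand. The sample titles name DMSO in the TBK1i set only, and no solvent for the controls of the RGFP966 set. No group was given an inhibitor without KLA. An effect of an inhibitor on the resting level therefore cannot be told apart from one on the response to KLA. Both WT and NKO cells carry floxed Ncor1 alleles, and both Pgc1b genotypes carry floxed Ppargc1b alleles. Cre is driven by the Lyz2 promoter, active in myeloid cells. The methods give C57BL/6 mice aged 8 to 12 weeks, and the strain stands in the names of most libraries.

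Between 8.32 M and 16.8 M counts per library fell in genes. Levels are given as CPM, the count relative to the library total scaled by the trimmed mean of M-values (TMM). On raw library totals, without TMM scaling, a count of 3 was worth 0.179 to 0.36 CPM. Ncor1 was 166 CPM in WT_Veh and 57.01 in NKO_Veh. Lyz2, where Cre is inserted, was 8217 CPM in Pgc1b_flox_Veh and 4410 in Pgc1b_flox_Cre_Veh, whereas the whole-transcript count of Ppargc1b was 3.63 and 3.58 CPM, which cannot show the loss of single exons and so does not check the deletion. All 7 macrophage markers exceeded 1 CPM in every library, and the summed T cell markers stayed at or below 0.405 CPM. The summed neutrophil markers were 1302 to 1831 CPM in the 4 RANKL libraries and at most 22.8 CPM in the other 40. The 6 osteoclast markers summed to 159 and 157 CPM in WT_RANKL and to 1053 and 865 CPM in WT_Veh. Among these markers Atp6v0d2 had the highest median level (548 CPM). Fibroblast markers (Col1a1, Col1a2, Dcn and Lum) summed to 1.15 to 274 CPM in the NCoR set, 21.2 to 40.8 in the TBK1i set and at most 2.67 in the other sets, and they differed between the groups compared, at 79.2 and 71.6 CPM in WT_Veh, 1.15 and 1.33 in WT_KLA, and 188 and 168 in WT_RANKL. The high sums were mostly the collagen genes. Col1a1 reached 167 CPM and Col1a2 104 CPM, whereas Dcn stayed at or below 3.18 CPM and Lum at or below 0.491 CPM in every library. By Xist and Y-linked transcripts, the 8 Pgc1b libraries and the 2 NKO_KLA libraries were from males and the other 34 from females, and by the date in the library names the NKO_KLA libraries were stamped 1401 days before WT_KLA. At KLA, genotype, date and sex therefore cannot be told apart in the NCoR set.

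Histone deacetylases remove acetyl groups from lysines of histones and of other proteins. Class I enzymes (HDAC1, HDAC2, HDAC3 and HDAC8) are largely nuclear, and HDAC1 and HDAC2 act as the catalytic subunits of the SIN3, NuRD, CoREST and MiDAC complexes. Class IIa enzymes (HDAC4, HDAC5, HDAC7 and HDAC9) have little deacetylase activity of their own, bind transcription factors of the MEF2 family and leave the nucleus when kinases phosphorylate them, whereas class IIb (HDAC6, a tubulin deacetylase, and HDAC10, a polyamine deacetylase) is mainly cytoplasmic and HDAC11 alone forms class IV. In macrophages, treatment with lipopolysaccharide and related ligands is known to reset the levels of several of these transcripts.

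Start-site sequence is shown for 4 members whose transcripts carry the results below. Hdac5 had the widest range over the groups, Hdac9 and Hdac7 moved in opposite directions with RGFP966, and Hdac2 is a member that rose with KLA. Each run spans 250 bases before to 50 bases after the start of the transcript counted here, 5′ to 3′ on the gene's strand, from RefSeq on GRCm38.p6 (mm10). RefSeq start-site sequence was matched for 8 of the 10 members. The Hdac5 run is chr11:102230123-102230422 (minus strand), the Hdac9 run chr12:34528840-34529139 (minus), the Hdac7 run chr15:97831718-97832017 (minus) and the Hdac2 run chr10:36974294-36974593 (plus). Capitals mark matches, on either strand, to 5 motifs: GGG, any 2 bases and TTTCC (NF-kB), GAGGAAG (PU.1), TGANTCA (AP-1, where N is any base), CACGTG (E-box) and CTA, any 4 bases and TAG (MEF2). The motifs were chosen with earlier results known, and MEF2 was added after these sequences had been read.
Hdac5: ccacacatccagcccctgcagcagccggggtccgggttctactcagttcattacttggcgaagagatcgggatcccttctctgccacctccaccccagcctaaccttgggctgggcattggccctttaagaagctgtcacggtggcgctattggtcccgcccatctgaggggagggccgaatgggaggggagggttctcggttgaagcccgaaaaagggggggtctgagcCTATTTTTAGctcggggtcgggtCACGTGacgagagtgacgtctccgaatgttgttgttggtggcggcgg
Hdac9: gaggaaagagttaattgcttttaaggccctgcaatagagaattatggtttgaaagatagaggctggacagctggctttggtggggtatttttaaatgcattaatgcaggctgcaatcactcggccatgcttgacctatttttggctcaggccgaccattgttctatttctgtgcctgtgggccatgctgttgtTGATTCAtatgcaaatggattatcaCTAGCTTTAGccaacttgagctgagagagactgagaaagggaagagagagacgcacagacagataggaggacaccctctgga
Hdac7: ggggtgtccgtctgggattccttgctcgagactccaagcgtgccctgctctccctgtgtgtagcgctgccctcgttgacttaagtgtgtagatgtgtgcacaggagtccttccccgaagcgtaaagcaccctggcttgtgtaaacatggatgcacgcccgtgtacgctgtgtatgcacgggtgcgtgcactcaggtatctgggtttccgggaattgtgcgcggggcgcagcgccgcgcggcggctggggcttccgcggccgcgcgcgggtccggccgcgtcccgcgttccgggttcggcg
Hdac2: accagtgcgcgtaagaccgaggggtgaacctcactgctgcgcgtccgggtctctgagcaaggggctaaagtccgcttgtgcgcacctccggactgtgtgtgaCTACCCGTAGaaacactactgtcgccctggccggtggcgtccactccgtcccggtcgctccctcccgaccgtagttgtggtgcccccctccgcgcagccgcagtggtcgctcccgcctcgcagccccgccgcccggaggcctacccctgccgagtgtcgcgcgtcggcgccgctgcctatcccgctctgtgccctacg

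The Hdac5 run held 1 E-box and 1 MEF2 match (CTATTTTTAG), and the Hdac9 run held 1 AP-1 match (TGATTCA) and 1 MEF2 match (CTAGCTTTAG). The Hdac2 run held 1 MEF2 match (CTACCCGTAG), and in the Hdac7 run none of the 5 motifs was found. No match overlapped another. RefSeq also lists other starts for Hdac7 and Hdac9, which are not printed. Another Hdac7 start held 1 PU.1 match, a further Hdac7 start 1 AP-1 match, and the remaining Hdac7 start none. The other Hdac9 start held 1 NF-kB match. Of 32851 promoters of the same length, 3.69% held the MEF2 motif, 7.81% AP-1, 7.15% the E-box, 13.6% PU.1 and 1.63% NF-kB. The Hdac2, Hdac7 and Hdac5 runs were rich in CpG (36, 35 and 18 CpG, against a median of 7 over all promoters), whereas the Hdac9 run held 3. These matches are letters in a window and were not tested for binding.

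Hdac5 was the member with the highest length-scaled level in resting cells, and Hdac1 and Hdac2 took that place after KLA. Levels of different genes are compared as CPM per kb of the listed transcript. In Veh of the RGFP966 set, Hdac5 (a class IIa enzyme that represses MEF2 targets) stood at 23.3 CPM per kb, 39.1% of the sum over the 10 members, Hdac2 at 13.1 (21.9%), Hdac1 at 4.2 and Hdac7 at 3.83. In KLA, Hdac2 held 21.1 CPM per kb (45.3%) and Hdac1 16 (34.4%), while Hdac5 held 1.28 (2.75%). Each of these genes in Veh had both libraries above both libraries of the next. Hdac8, Hdac9 and Hdac6 (3.39, 3.36 and 3.25 CPM per kb) included neighbours that overlapped, as did Hdac9 and Hdac7 in KLA (2.13 and 1.79).

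The 3 other vehicle groups without Cre opened with Hdac5 and Hdac2 as well. Hdac5 stood at 32.3 CPM per kb in WT_Veh, 29.5 in DMSO_Veh and 24.3 in Pgc1b_flox_Veh. The third place differed between sets, with Hdac7 in WT_Veh and DMSO_Veh (6.6 and 5.26 CPM per kb) and Hdac9 in Pgc1b_flox_Veh (11.4). Hdac11 was last in all 22 groups, and its mean stayed at or below 3 CPM. The summed length-scaled level of the 10 members was 59.6 CPM per kb in Veh, 46.6 in KLA and 52.9 in RGFP966_KLA. The length listed for Hdac7 differs between sets (4214 and 4359 bases), and with the other length its rank shifted in 1 group, from 3 to 4 in NKO_IL4.

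**Figure D1:**
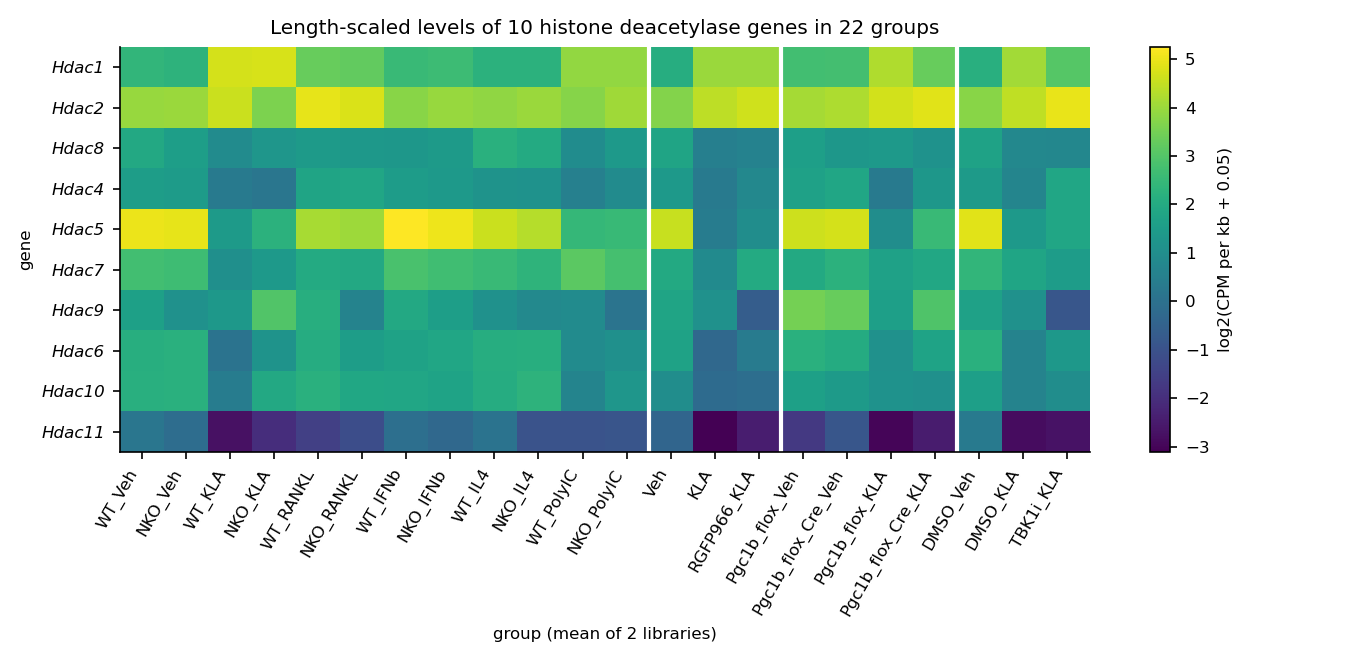
Mean length-scaled level, as log2(CPM per kb + 0.05), of the 10 members (rows) in the 22 groups (columns, n = 2), with white lines between the 4 sets. Hdac5 is bright in vehicle, IFNβ and IL4 groups and dark after KLA (23.3 CPM per kb in Veh, 1.28 in KLA), Hdac1 brightens with KLA and poly I:C, and Hdac11 is the darkest row.

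In the RGFP966 and TBK1i sets, the class I genes Hdac1 and Hdac2 rose with KLA and the other 8 members fell. A gene was called when edgeR's quasi-likelihood F-test gave an adjusted p below 0.05 and the fold change was above 1.5. All 10 members were called for KLA against Veh, where 60% of the 12196 tested genes were called (27.9% higher, 32.2% lower), 2 of them higher and 8 lower. All 10 were also called in the same directions for DMSO_KLA against DMSO_Veh (background 58.9%, with 29.6% higher and 29.3% lower), 9 of 10 for WT_KLA against WT_Veh (57.8%, with 25.4% higher and 32.3% lower), and 5 of 10 for Pgc1b_flox_KLA against Pgc1b_flox_Veh (48.5%, with 22.8% higher and 25.7% lower). The median log2 fold change of the members was -1.15 in the RGFP966 set, against -0.07 over all tested genes, and -0.85, -1.47 and -0.78 in the TBK1i, NCoR and Pgc1b sets, against 0.02, -0.14 and -0.05. WT_KLA was stamped 115 days before WT_Veh, so its date cannot be told apart from KLA, whereas within each of the other 3 sets vehicle and KLA carried 1 date. The part of the fibroblast transcripts, lower in WT_KLA than in WT_Veh as given above, was not tested. Leaving out 1 library lost the calls of Hdac2 (0.58 without WT_Veh replicate 2) and Hdac8 (-0.66 without WT_KLA replicate 2) in the NCoR set, and in the TBK1i set those of Hdac4 (-0.54) and Hdac8 (-0.60) without DMSO_KLA replicate 1, Hdac7 (-0.57) without DMSO_KLA replicate 2, and Hdac9 without DMSO_Veh replicate 1 (-0.49) or DMSO_KLA replicate 1 (-0.51).

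Hdac1 (NM_008228, chromosome 4, 129516104 to 129542646) was 8.3 and 8.12 CPM in Veh and 31.4 and 31.2 in KLA. The KLA libraries lay far above the vehicle libraries, a log2 fold change of 1.93 ± 0.116 (SE) with adjusted p = 1.44e-26. The rise was 1.96 in the TBK1i set, 2.30 in the NCoR set and 1.53 in the Pgc1b set. Hdac2 (NM_008229, chromosome 10, 36974544 to 37001888), the close paralog that pairs with HDAC1 in complexes, was 26.7 and 25.3 CPM in Veh and 41 and 42.9 in KLA. Its log2 rise of 0.69 ± 0.0889 (adjusted p = 6.91e-11) was smaller than that of Hdac1. In the Pgc1b set it was 0.54 ± 0.109, below the fold threshold. Hdac8 (NM_027382, chromosome X, 102284638 to 102505158), the class I enzyme that works outside the large complexes, went the other way, from 5.81 and 5.86 CPM to 2.01 and 2.72 CPM (log2 fold change -1.29 ± 0.25, adjusted p = 3.67e-06). Hdac3 was 31.3 and 33.1 CPM in Veh and 28.3 and 32 CPM in KLA, with groups that overlapped (log2 fold change -0.09 ± 0.0944, adjusted p = 0.372).

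Hdac5 (NM_001284248, chromosome 11, 102195747 to 102230172) had the steepest fall among the well-counted members. It was 105 and 94.9 CPM in Veh and 6.02 and 4.94 CPM in KLA, a log2 fold change of -4.19 ± 0.115 (adjusted p = 1.63e-49), which is 18.3-fold lower. The falls in the other sets were 11.6-fold (TBK1i set), 12.1-fold (NCoR set) and 12.5-fold (Pgc1b set), and no KLA library overlapped a vehicle library. Hdac4 (NM_207225, chromosome 1, 91928779 to 92180341), another MEF2-binding class IIa enzyme, fell from 21.3 and 19.6 CPM to 9.56 and 9.81 CPM. Its log2 fold change of -1.08 ± 0.132 (adjusted p = 1e-11) compared with -0.78 in the TBK1i set, -1.23 in the NCoR set and -1.40 in the Pgc1b set. Exons of Hdac4 overlap those of the long noncoding gene Gm26720 on the opposite strand by 3536 bases. The methods describe strand-specific counting, which would keep reads of the pair apart.

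Hdac7 (chromosome 15, 97792664 to 97831767), a class IIa enzyme also found as splice forms, was 16.9 and 16.5 CPM in Veh and 6.98 and 8.65 CPM in KLA (log2 fold change -1.09 ± 0.145, adjusted p = 2.35e-10). The size of its fall ranged from -0.30 ± 0.168 in the Pgc1b set, where it was not called (adjusted p = 0.121), to -1.71 in the NCoR set. Hdac9 (NM_024124, chromosome 12, 34371497 to 34528889) differed most between sets. In the RGFP966 set it was 13.3 and 16.3 CPM in Veh and 11 and 7.83 CPM in KLA (log2 fold change -0.67 ± 0.154, adjusted p = 7.92e-05). In the Pgc1b set it started at 52.4 and 47.8 CPM and fell to 14.6 and 12.2 CPM (log2 fold change -1.90 ± 0.139), and in the NCoR set the groups overlapped (16 and 11 CPM against 12.3 and 9.67, adjusted p = 0.11). Its call in the RGFP966 set was lost without Veh replicate 2 (log2 fold change -0.51) and without KLA replicate 2 (-0.41).

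Of the class IIb and IV genes, Hdac6 (NM_010413, chromosome X, 7930122 to 7947889) fell from 14.1 and 12.7 CPM to 3.73 and 2.64 CPM (log2 fold change -2.09 ± 0.194, adjusted p = 1.47e-16). Hdac10 (NR_028449, a noncoding transcript variant, chromosome 15, 89123303 to 89128700) fell from 4.92 and 5.55 CPM to 2.1 and 2.39 CPM (log2 fold change -1.21 ± 0.262, adjusted p = 2.58e-05). For both genes the vehicle and KLA libraries did not overlap. Hdac11 (NM_144919, chromosome 6, 91156815 to 91174683) was near the limit of detection after KLA. Its 2 Veh libraries held 73 counts together and its KLA libraries 0 and 4 counts. Per raw library total, without TMM scaling, that is a ratio of 17.2 (95% exact interval 6.44 to 64.8, counting error only). The ratio was 22.8 (8.64 to 85.5) in the TBK1i set, 18.1 (5.98 to 89.8) in the NCoR set and 5.91 (1.71 to 31.5) in the Pgc1b set, where Hdac11 was not called (adjusted p = 0.179). With TMM scaling the falls were smaller in each set. They ran from 0.719 to 0.0664 CPM per kb in the RGFP966 set and from 1.21 to 0.0911 in the TBK1i set. In the NCoR set they ran from 1.09 to 0.0995 and in the Pgc1b set from 0.255 to 0.0759.

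The response to KLA was compared directly between the RGFP966, Pgc1b and TBK1i control sets in a joint fit of 11967 genes whose listed transcript is the same in each. Of the 9 members in that fit, 2 were called as differing, against 21.1% of all genes. Hdac9 responses spanned 1.22 log2 units (adjusted p = 1.8e-06), with the deepest fall in the Pgc1b set. Hdac6 responses spanned 1.02 log2 units (adjusted p = 0.00827), with the shallowest fall there. Hdac5 also passed the test (adjusted p = 0.0378) with a span of 0.57, below the fold threshold. The Pgc1b libraries were male and the others female, and Hdac6 and Hdac8 lie on chromosome X. The 8 cell division genes summed to 873 and 797 CPM in Pgc1b_flox_Veh and 284 and 319 in Pgc1b_flox_KLA, against 339 and 350 in Veh, 288 and 287 in KLA, 292 and 292 in DMSO_Veh and 269 and 288 in DMSO_KLA. With KLA, all 8 were called lower in the Pgc1b set (25.7% of all genes). In the RGFP966 and TBK1i sets 6 were called lower (32.2% and 29.3%). There the single call higher was Mki67, which rose from 47.5 to 120 and from 77.9 to 122 CPM and weighs on these sums. The part of sex and of cell division in these differences was not tested.

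**Figure D2:**
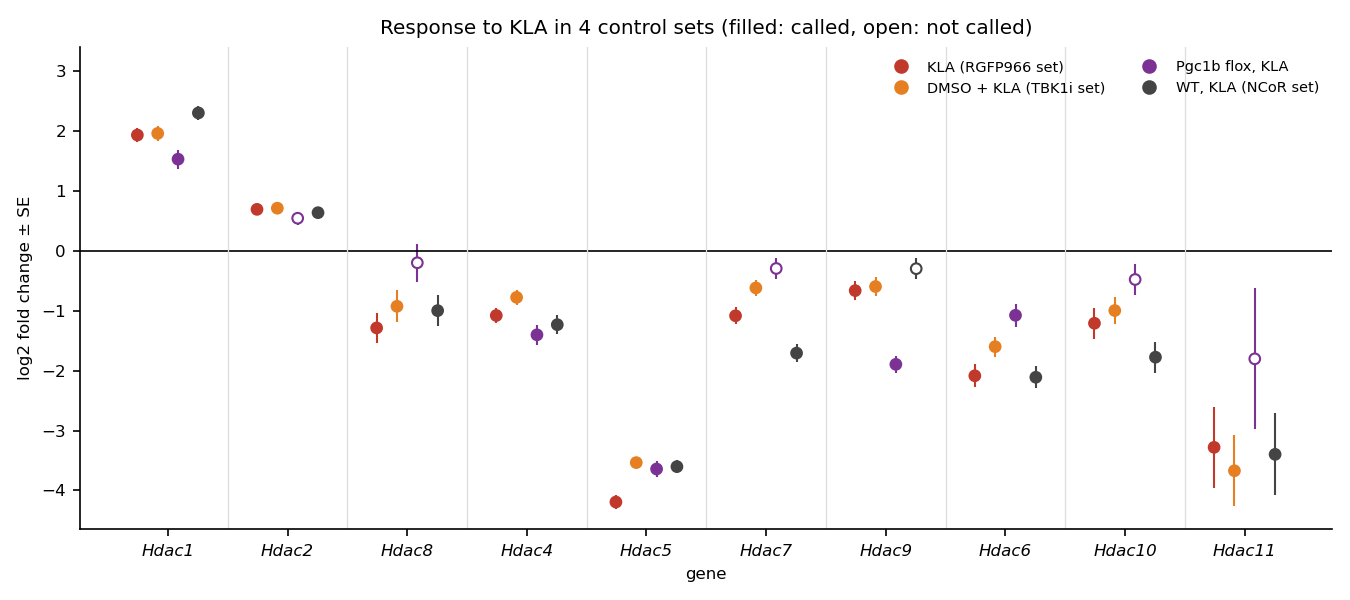
Log2 fold change with KLA (vertical axis, bars are SE) of each member in the 4 control sets (n = 2 against 2 each). Filled points were called, open points were not. Hdac1 and Hdac2 lie above 0 in each set and the other members below 0, Hdac9 ranges from -0.30 (NCoR set) to -1.90 (Pgc1b set), and the Hdac11 values rest on at most 4 counts per KLA group.

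With RGFP966, Hdac7, Hdac5 and Hdac6 rose and Hdac9 fell relative to KLA alone, while the Hdac1 libraries overlapped. For RGFP966_KLA against KLA, 4 of 10 members were called, 3 higher and 1 lower, where 25.4% of all tested genes were called (15.8% higher, 9.54% lower). The median log2 fold change was 0.37 over the members and 0.03 over all genes. Hdac3 itself, the target of the inhibitor, was 28.3 and 32 CPM in KLA and 29.6 and 30.2 in RGFP966_KLA (log2 fold change -0.02 ± 0.0995, adjusted p = 0.913).

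Hdac7 had the largest rise. It was 6.98 and 8.65 CPM in KLA and 19 and 15.5 CPM in RGFP966_KLA, beside 16.9 and 16.5 CPM in Veh. Both inhibitor libraries lay above both KLA libraries and on either side of the vehicle libraries. The log2 fold change against KLA was 1.13 ± 0.151 (adjusted p = 7.33e-10), 2.19-fold. Its listed exons share 29 bases with Slc48a1 on the opposite strand.

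Hdac9 moved the opposite way and further. It was 11 and 7.83 CPM in KLA and 2.51 and 2.78 CPM in RGFP966_KLA, beside 13.3 and 16.3 CPM in Veh. The inhibitor libraries were below every other library of the set, with a log2 fold change of -1.82 ± 0.218 (adjusted p = 2.31e-11) against KLA, 3.53-fold lower. Within class IIa, the RGFP966_KLA libraries therefore stood below the vehicle libraries for Hdac9 and on both sides of them for Hdac7.

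The changes of Hdac5 and Hdac6 were smaller and depended on single libraries. Hdac5 was 6.02 and 4.94 CPM in KLA and 7.59 and 9.15 in RGFP966_KLA (log2 fold change 0.62 ± 0.172, adjusted p = 0.00164), and Hdac6 was 3.73 and 2.64 CPM in KLA and 5.09 and 5.1 in RGFP966_KLA (0.69 ± 0.236, adjusted p = 0.0104). For both genes the inhibitor libraries were above the KLA libraries but far below Veh (99.7 and 13.4 CPM on average). Without KLA replicate 2 neither was called (log2 fold changes 0.46 and 0.44), nor was Hdac5 without RGFP966_KLA replicate 2 (0.48). DESeq2 called neither, and 2 members in all.

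Among the other members, Hdac4 (9.56 and 9.81 CPM in KLA, 13.8 and 13.4 with RGFP966) and Hdac2 (41 and 42.9 CPM, 50.3 and 49.1) passed the test at folds below 1.5, with log2 fold changes of 0.49 ± 0.146 (adjusted p = 0.00329) and 0.24 ± 0.0864 (adjusted p = 0.0144). In both the inhibitor libraries lay above the KLA libraries. Hdac1 was 31.4 and 31.2 CPM in KLA and 29.6 and 33.1 with RGFP966, groups that overlapped, with a log2 fold change of -0.00 ± 0.102. Hdac8 (2.01 and 2.72 CPM, 2.51 and 2.55) and Hdac10 (2.1 and 2.39 CPM, 2.06 and 2.7) overlapped as well, and their SEs of 0.304 and 0.315 leave changes of that order undetectable at these counts. Hdac11 had 0 and 4 counts in KLA and 1 and 8 counts with RGFP966, too few to give a fold.

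**Figure D3:**
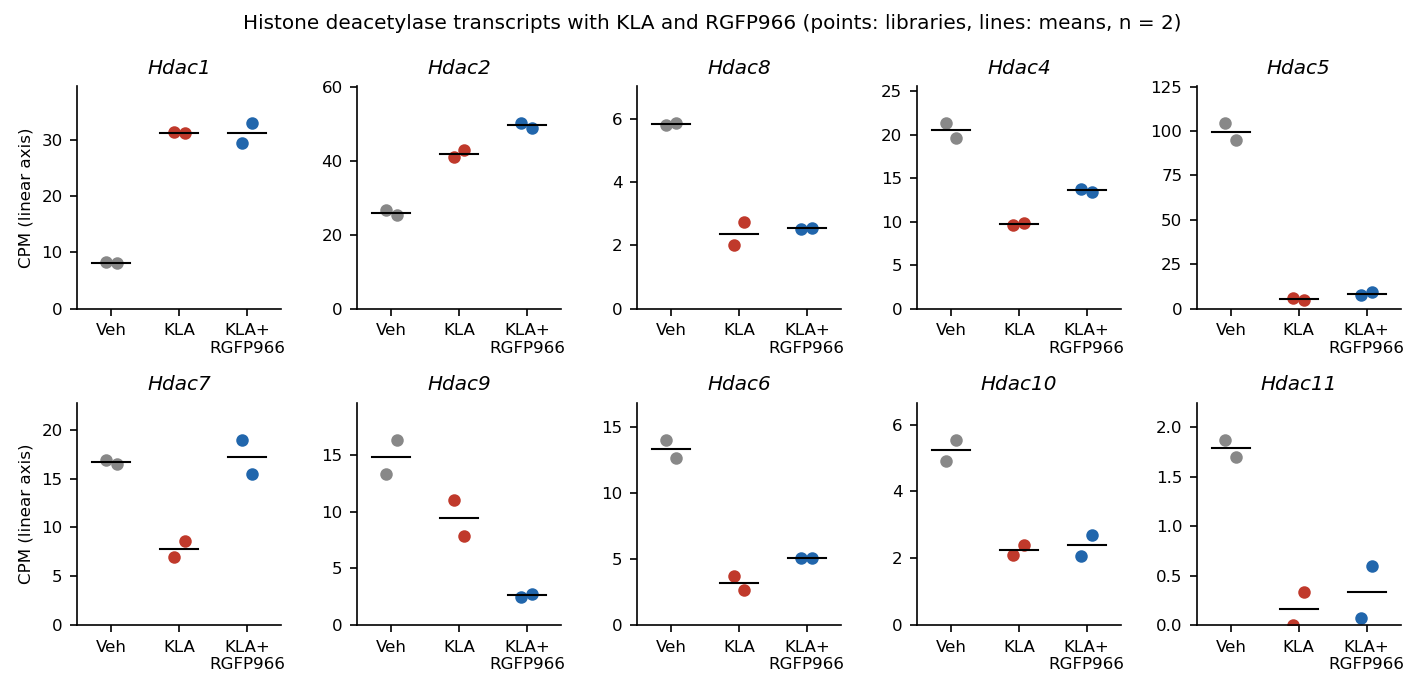
CPM on a linear axis from 0 for each member in the 6 libraries of the RGFP966 set. Points are libraries and lines are means (n = 2). Hdac7 with RGFP966 (19 and 15.5 CPM) brackets the vehicle libraries, Hdac9 (2.51 and 2.78 CPM) is below every other library, and Hdac1 is at the same height with and without the inhibitor.

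RGFP966_KLA replicate 2 was stamped 14 days after the other 5 libraries of the set. Without it, Hdac7, Hdac9 and Hdac6 were still called and Hdac5 was not. The summed level of 8 cell division genes was 288 and 287 CPM in KLA and 164 and 154 CPM with RGFP966, and its part in the results was not tested. In bulk RNA, fewer cells of one kind and less RNA per cell cannot be told apart.

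Genes that work with the members were read from lists chosen with earlier results of these data known. With RGFP966, 1 of 27 tested genes of the HDAC1 and HDAC2 complexes was called higher (Mta3, a NuRD subunit, log2 fold change 0.61) and 4 lower (of all genes, 15.8% higher and 9.54% lower), with Arid4a and Sin3a of the SIN3 complex at -1.06 and -0.68. The list's median log2 fold change was -0.30, against 0.03 over all genes. Of 10 class IIa partners and kinases, Prkd2, a kinase that phosphorylates class IIa enzymes (1.17), and Mef2a (0.70) were called higher, and the kinases Sik1 (-1.81) and Camk1 (-0.82) lower, with a list median of -0.06. Of 10 histone acetyltransferases only Hat1 was called, at -1.14. Among 7 sirtuins, the NAD-dependent deacetylases, 3 were called higher and none lower, and these 3 stayed below the mean of 5 CPM set for naming.

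With KLA alone, in the RGFP966 set, 5 of 27 complex genes were called higher and 6 lower (of all genes, 27.9% higher and 32.2% lower). Sap30 of the SIN3 complex rose from 19.1 to 153 CPM and Mbd2 of NuRD from 87.6 to 259 CPM, whereas Chd3 of NuRD fell from 102 to 31.8 CPM. Class IIa partners and kinases were called higher in 2 and lower in 5 of 10, with a median log2 fold change of -0.75 against -0.07 over all genes. Mef2c fell from 125 to 24.2 CPM and the kinase gene Sik3 rose from 33.8 to 111 CPM. Of 10 acetyltransferases 4 were called higher and 1 lower, and among 7 sirtuins 1 (Sirt6) was called higher and 3 lower.

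In the presence of KLA, Hdac1 and Hdac9 were lower and Hdac4 and Hdac6 higher with TBK1i. For TBK1i_KLA against DMSO_KLA, 4 of 10 members were called (background 33.3%). Hdac1 was 34.8 and 32.1 CPM in DMSO_KLA and 17.9 and 14.1 CPM in TBK1i_KLA, a log2 fold change of -1.05 ± 0.127 (adjusted p = 4.67e-16). Hdac9 was 8.84 and 9.72 CPM in DMSO_KLA and 1.91 and 2.48 CPM in TBK1i_KLA (-2.08 ± 0.257, adjusted p = 2.5e-15), its lowest group among the 22. In both genes the groups did not overlap. Hdac4 rose from 10.7 and 14.8 CPM to 26.7 and 29.8 CPM (1.15 ± 0.133, adjusted p = 4.78e-17), above both DMSO_Veh libraries (19.7 and 24 CPM), and Hdac6 from 5.97 and 6.48 CPM to 11 and 9.47 CPM (0.73 ± 0.195, adjusted p = 0.000502). Hdac2 and Hdac5 passed the test at log2 fold changes of 0.53 and 0.50, below the fold threshold. The 8 cell division genes summed to 269 and 288 CPM in DMSO_KLA and 504 and 499 CPM in TBK1i_KLA. Of them 3 were called higher and 1 lower. Mki67 rose from 122 to 410 CPM and weighs most on the sum, whereas Pcna fell from 124 to 46.6 CPM. The part of cell division in these changes was not tested.

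Between the libraries labelled Pgc1b_flox_Cre and Pgc1b_flox, members were called at KLA and not at vehicle. At vehicle 0 of 10 members were called by edgeR or DESeq2, where 0.303% of all genes were called by edgeR, and 0 members had an unadjusted p below 0.05. At KLA, 5 of 10 were called (background 26.1%). Hdac5 was 9.47 and 7.03 CPM without Cre and 25.7 and 24.1 CPM with Cre (log2 fold change 1.58 ± 0.152, adjusted p = 6.72e-11). Hdac9 was 14.6 and 12.2 CPM without Cre and 29.9 and 37.5 CPM with it (1.32 ± 0.146, adjusted p = 1.66e-09). Both genes were lower than at vehicle in either genotype. Hdac4 (1.03), Hdac6 (0.64, lost without Pgc1b_flox_KLA replicate 2 at 0.50 or Pgc1b_flox_Cre_KLA replicate 1 at 0.38) and Hdac1 (-0.95) were the other calls. The interaction of genotype and KLA was called for the same 5 genes, with 22.8% of all genes called, and was largest for Hdac9 (1.54 ± 0.186) and Hdac5 (1.49 ± 0.179). That of Hdac6 was lost in 4 fits without 1 library (Pgc1b_flox_Veh replicate 2, Pgc1b_flox_Cre_Veh replicate 1, Pgc1b_flox_KLA replicate 2 or Pgc1b_flox_Cre_KLA replicate 1, with log2 values of 0.54 to 0.75), and DESeq2 called the other 4 without it (0.78, adjusted p = 0.052). Cell division genes summed to 284 and 319 CPM in Pgc1b_flox_KLA and 635 and 665 CPM in Pgc1b_flox_Cre_KLA, a part that was not tested.

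The effect of RGFP966 at KLA was set against those of TBK1i and Pgc1b_flox_Cre in the joint fit. Against TBK1i, 2 of 9 members were called (background 31.3%), Hdac1 at a difference of 0.94 ± 0.187 log2 units (adjusted p = 2.52e-05) and Hdac4 at -0.77 ± 0.224 (adjusted p = 0.00358). For Hdac9 the difference between the inhibitors was 0.15 ± 0.362 (adjusted p = 0.766). Against Pgc1b_flox_Cre, 4 of 9 were called (28.2%), and Hdac9 differed by -3.21 ± 0.264 (adjusted p = 5.22e-16), since it was lower with RGFP966 and higher with Cre. Hdac1 (0.87), Hdac5 (-1.03) and Hdac4 (-0.61) also differed. Hdac7 was left out because its listed transcript changes between sets. With transcripts joined by symbol, a choice made after the data were seen, its rise with RGFP966 was 1.28 above the effect of TBK1i (adjusted p = 3.1e-06) and 0.82 above that of Pgc1b_flox_Cre (adjusted p = 0.00202). Each set had its own control libraries, and the titles name DMSO for those of the TBK1i set only.

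**Figure D4:**
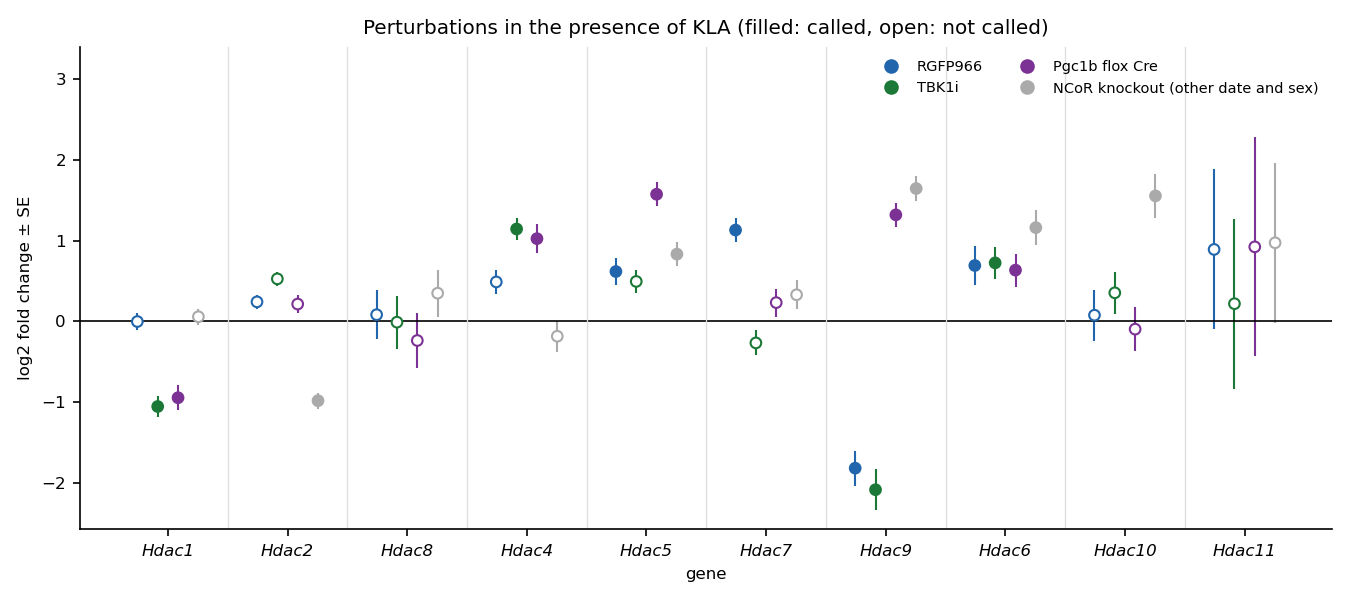
Log2 fold change in the presence of KLA (vertical axis, bars are SE) for RGFP966 against KLA, TBK1i_KLA against DMSO_KLA, Pgc1b_flox_Cre_KLA against Pgc1b_flox_KLA and NKO_KLA against WT_KLA (n = 2 against 2 each). Filled points were called. Hdac9 is at -1.82 with RGFP966 and -2.08 with TBK1i but at 1.32 with Pgc1b_flox_Cre, Hdac1 is at -1.05 and -0.95 with TBK1i and Pgc1b_flox_Cre, and Hdac7 is filled for RGFP966 alone.

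Among the other ligands in WT cells, poly I:C, which acts through TLR3, called 8 of 10 members (background 47.2%), RANKL 5 (43.8%), IFNβ 1 (6.47%) and IL4 none (13.1%). All share the WT_Veh libraries. With poly I:C, Hdac1 rose from 10.5 and 10.1 CPM to 27.6 and 30.9 CPM (log2 fold change 1.51 ± 0.124, adjusted p = 8.06e-17) and Hdac5 fell from 132 and 145 CPM to 23.9 and 22.6 CPM (-2.57 ± 0.0857, adjusted p = 1.99e-35). Hdac4, Hdac6, Hdac8, Hdac9, Hdac10 and Hdac11 were called lower as well, at -0.72 to -1.53. Hdac7 and Hdac2 departed from their KLA pattern. Hdac7 was 37.6 and 36.4 CPM against 27.9 and 27.8 in WT_Veh (0.41 ± 0.101, below the fold threshold), and Hdac2 was 26.1 and 26.2 CPM against 32.1 and 29.6 CPM (-0.24 ± 0.097). The call of Hdac9 was lost without WT_Veh replicate 1 (-0.43) or WT_PolyIC replicate 1 (-0.44), and that of Hdac11 without WT_Veh replicate 2 (-0.65) or WT_PolyIC replicate 2 (-1.18).

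With RANKL, the cytokine of osteoclast formation, Hdac2 rose from 32.1 and 29.6 CPM to 61.7 and 61.2 CPM (0.99 ± 0.0787, adjusted p = 2.45e-17) and Hdac1 to 19.9 and 18.3 CPM (0.90 ± 0.122). Hdac5 (-0.87), Hdac7 (-0.74) and Hdac11 (-1.85) were called lower. The RANKL libraries differ from WT_Veh in culture name (osteoclast, not BMDM), time (12 h, not 6 h) and date (stamped 536 days earlier). None of these can be told apart from RANKL. The RANKL libraries also carried the neutrophil and fibroblast transcripts given above. Their summed cell division genes were 1054 and 1112 CPM in WT_RANKL, against 310 and 287 CPM in WT_Veh, and the part of cell mixture was not tested. With IFNβ the single call was Hdac8, 5.98 and 6.91 CPM in WT_Veh and 4.02 and 4.48 CPM in WT_IFNb (-0.60 ± 0.196, adjusted p = 0.0161), which was lost without WT_Veh replicate 2 (-0.50) or WT_IFNb replicate 1 (-0.52). With IL4, edgeR and DESeq2 called none, and 3 members had an unadjusted p below 0.05. Hdac9 (-0.52), Hdac5 (-0.45) and Hdac4 (-0.39) passed the adjusted p at folds below 1.5.

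Apart from KLA, few members differed between NKO and WT, and Hdac9 fell with both RANKL and poly I:C. NKO_Veh against WT_Veh called none of the 10 by edgeR or DESeq2 (background 6.21%), with 1 at an unadjusted p below 0.05. Hdac9 was 16 and 11 CPM in WT_Veh and 9.26 and 9.3 CPM in NKO_Veh, groups that did not overlap (-0.54 ± 0.144, adjusted p = 0.00355, below the fold threshold). With RANKL, Hdac9 was 19.7 and 18.8 CPM in WT and 6.6 and 6.68 CPM in NKO (-1.54 ± 0.158, adjusted p = 3.56e-12), the only member called (background 13.2%). With poly I:C it was 6.43 and 9.98 CPM in WT and 4.65 and 4.46 CPM in NKO (-0.85 ± 0.221, adjusted p = 0.00301), again the only call (5.93%), lost without WT_PolyIC replicate 2 (-0.50). Fibroblast markers with poly I:C summed to 95.1 and 109 CPM in WT and 57.7 and 49.97 CPM in NKO, and were lower in NKO than in WT with vehicle, IFNβ and IL4 too. Their part was not tested. With IFNβ none was called (3.8%, with Hdac9 at -0.36 ± 0.135), with 3 members at an unadjusted p below 0.05 and none called by DESeq2. With IL4 the single call was Hdac11 (4.24%), with 29 and 35 counts in WT and 21 and 12 in NKO, and it was lost with DESeq2 (adjusted p = 0.0959) and without WT_IL4 replicate 1, WT_IL4 replicate 2 or NKO_IL4 replicate 2 (log2 fold changes -1.22, -0.99 and -0.79).

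The NKO effect under each ligand was set against that at vehicle by an interaction term. With RANKL, 2 of 10 members were called (background 14.2%), Hdac9 at -0.99 ± 0.218 (adjusted p = 0.000265) and Hdac6 at -0.59 ± 0.171 (adjusted p = 0.00609, just past the fold threshold). Hdac6 was 16.7 and 17.4 CPM in WT_RANKL and 11.6 and 12.2 CPM in NKO_RANKL. Its interaction was lost without WT_Veh replicate 2, NKO_Veh replicate 2, WT_RANKL replicate 2 or NKO_RANKL replicate 1 (log2 values -0.53 to -0.56). None was called with poly I:C (3.24%), IFNβ (0.604%) or IL4 (0.604%) by edgeR or DESeq2, and the counts at an unadjusted p below 0.05 were 3, 0 and 0. Cell division genes summed to 535 and 456 CPM in NKO_RANKL, below the WT_RANKL libraries, and fibroblast markers to 193 and 274 CPM, above them. Their part in these differences was not tested.

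At KLA, NKO and WT libraries differed in date and sex besides genotype, and 5 members were called (background 40%). Hdac9 was 34.9 and 33.9 CPM in NKO_KLA and 12.3 and 9.67 CPM in WT_KLA (1.65 ± 0.155), the opposite direction to the other ligands. Hdac2 was 24.8 and 23.6 CPM in NKO_KLA and 49.3 and 46.5 CPM in WT_KLA (-0.98 ± 0.0993), and NKO_KLA was its lowest group among the 22. Hdac10 (1.56), Hdac6 (1.16) and Hdac5 (0.83, lost without WT_KLA replicate 2 at 0.55) were called higher. With the male Pgc1b_flox_KLA libraries as the control, Hdac9 (1.30), Hdac5 (1.23), Hdac10 (0.73) and Hdac2 (-1.11) were still called, with the value of Hdac10 down from 1.56, while Hdac6 no longer differed (0.01, adjusted p = 0.962), against DMSO_KLA it was 0.50, below the call of 1.5-fold, and against KLA of the RGFP966 set it was 1.23. The interaction with KLA was called for the same 5 genes (background 36.9%), from -1.02 for Hdac2 to 2.19 for Hdac9. Fibroblast markers summed to 8.42 and 6 CPM in NKO_KLA, above WT_KLA, and their part was not tested. These differences cannot be told apart from date and sex.

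**Figure D5:**
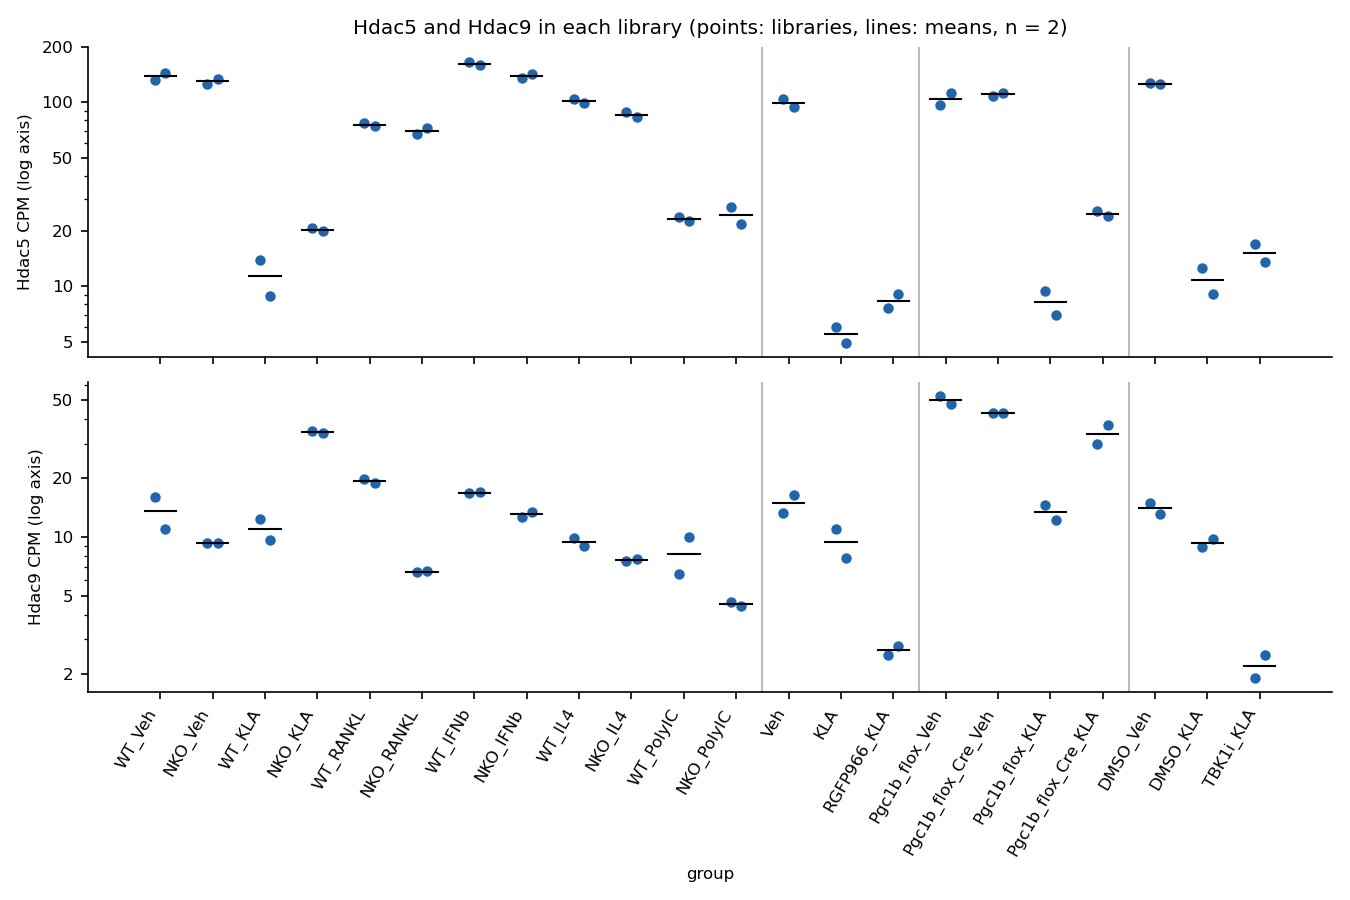
CPM on log axes of Hdac5 (top) and Hdac9 (bottom) in each library (points) with group means (lines, n = 2), for the 22 groups, with vertical lines between sets. Hdac5 is lowest in KLA of the RGFP966 set (5.48 CPM) and highest in WT_IFNb (163 CPM), whereas Hdac9 is lowest in TBK1i_KLA and RGFP966_KLA (2.19 and 2.64 CPM) and highest in Pgc1b_flox_Veh (50.1 CPM). CPM was scaled within each set.

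Over the 22 groups, Hdac5 and Hdac9 varied most and Hdac2 least of the 9 members other than Hdac11, whose group means (0.165 to 3 CPM) were too low for a fold. Group means of Hdac5 ran from 5.48 ± 0.762 CPM in KLA to 163 ± 4.74 CPM in WT_IFNb (SD, n = 2), a 29.7-fold range, and those of Hdac9 from 2.19 ± 0.407 to 50.1 ± 3.25 CPM, a 22.8-fold range. The ranges were 6.41-fold for Hdac1, 5.93-fold for Hdac6, 5.78-fold for Hdac10, 4.74-fold for Hdac7, 3.32-fold for Hdac8, 3.29-fold for Hdac4 and 2.6-fold for Hdac2, beside 1.58-fold for Hdac3. The lowest group of Hdac5, Hdac6, Hdac7, Hdac8, Hdac10 and Hdac11 was KLA of the RGFP966 set. The lowest groups of Hdac1 (Veh) and Hdac3 (RGFP966_KLA) were in that set too. CPM was scaled within each set, and the sets differ in date and partly in sex. Ranges over the 22 groups therefore mix set with treatment.

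Levels of the members over the groups fell into opposite patterns. As a description over 22 group means that share KLA and control conditions, log2(CPM + 0.5) of Hdac1 correlated with that of Hdac5 at r = -0.90 and of Hdac6 at -0.89, whereas Hdac5 and Hdac6 correlated at 0.88. Hdac9 stood apart, with r between -0.28 and 0.36 to each of the other 8 members compared. Nearest genes were sought among 9117 genes listed under the same transcript in every table. These had also passed the filter on low counts and averaged at least 5 CPM over the groups. Among them the one most like Hdac1 was Psma2, a proteasome subunit (r = 0.99). The one most like Hdac2 was Rrn3, a factor of RNA polymerase I (0.95), and the one most like Hdac9 was Mgst3, a glutathione transferase (0.93). The nearest genes were Hmces for Hdac4 (0.94), Tmem141 for Hdac6 (0.97), Focad for Hdac8 (0.90), C030006K11Rik for Hdac10 (0.92) and Etl4 for Hdac11 (0.95).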

How the data were processed

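RNA-seq counts were analysed for 44 mouse libraries labelled as BMDMs in 22 groups of 2, given in 4 tables. The authors aligned reads to mm10 with STAR and counted them per RefSeq transcript with HOMER, and deposited raw counts without normalization, as named in the methods and the submitters' processing notes (versions not given in the sources used here). Counting is described in the methods as strand-specific and within exons, and the count headers name no strand option. No column without a sample was present.

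For each table, genes were filtered with filterByExpr and fitted over all groups of the table with edgeR 4.0.16 (TMM, robust quasi-likelihood F-test, R 4.3.3), with Benjamini-Hochberg adjustment over 13407 (NCoR), 12196 (RGFP966), 12205 (Pgc1b) and 12332 (TBK1i) genes, and 11967 in the joint fit. A call needed an adjusted p below 0.05 and a fold above 1.5. CPM used TMM-scaled totals within each set, and the correlations over the 22 groups used a joint scaling of the 4 sets. Figures were drawn with matplotlib 3.10.9. The members and gene lists were chosen with earlier results of these data known. Named beside the members were the called genes with the 2 largest changes in each direction of each list (mean of at least 5 CPM), and the gene most correlated with each member (that of Hdac5 is not reported here). Hdac3, Ncor1 and Lyz2 served as checks, and Ppargc1b was added after its values were seen.

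On simulated counts, 100 of 100 genes changed 2-fold were recovered for RGFP966_KLA against KLA (11895 genes) and for NKO_Veh against WT_Veh (12786 genes), and 98 of 100 for the interaction of NKO and KLA. Only genes above 5 CPM were changed, and every gene was given the same spread. The recovery therefore does not cover lower levels, such as Hdac6, Hdac8, Hdac10 and Hdac11 in KLA (3.18, 2.36, 2.25 and 0.165 CPM). The Pgc1b and TBK1i sets were not simulated. Alternatives were DESeq2 1.42.0, its size factors, no filter on low counts, no fold threshold, the compared groups alone, other KLA controls for NKO_KLA, a replicate block, leaving out each library and, chosen after seeing the data, a joint fit by symbol and a crossed block. Nothing in the labels says that the 2 libraries of a group came from separate animals or cultures, so p-values measure only the spread between these libraries. Intervals and floors cover counting error only and use raw library totals without TMM scaling.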

Additional observations from a re-analysis of the deposited data

Results flagged for a closer look

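Several differences in effect between genotypes, treatments or sets passed the test of the difference itself. The effect of NKO at KLA minus that at vehicle was 2.19 for Hdac9, 1.51 for Hdac10, 1.09 for Hdac6, 0.92 for Hdac5 and -1.02 for Hdac2 on the log2 scale, where date and sex cannot be told apart from genotype. With RANKL the same difference was -0.99 for Hdac9 and -0.59 for Hdac6. The effect of Pgc1b_flox_Cre at KLA minus that at vehicle was 1.54 for Hdac9, 1.49 for Hdac5, 0.85 for Hdac4, 0.79 for Hdac6 and -0.97 for Hdac1.

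The effect of RGFP966 minus that of TBK1i was 0.94 for Hdac1 and -0.77 for Hdac4. The effect of RGFP966 minus that of Pgc1b_flox_Cre was -3.21 for Hdac9, -1.03 for Hdac5, -0.61 for Hdac4 and 0.87 for Hdac1. The response to KLA spanned 1.22 log2 units for Hdac9 and 1.02 for Hdac6 over the RGFP966, Pgc1b and TBK1i sets.

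The log2 effects of NKO also had opposite signs under different ligands, with both NKO libraries beyond both WT libraries in each ligand named. These differences between ligands were not tested against each other, and separation of 2 libraries from 2 is not a test. In edgeR, an adjusted p below 0.05 was met by 4 members higher and 1 lower with KLA, and 0 and 2 with RANKL. It was met by 1 higher and 2 lower with poly I:C, 0 and 1 with IFNβ, and 0 and 2 with IL4. Effects of the other members did not pass. At KLA, date and sex cannot be told apart from genotype. For Hdac9 the effect was 1.65 with KLA against -1.54 with RANKL, -0.85 with poly I:C, -0.36 with IFNβ and -0.31 with IL4. For Hdac2 it was -0.98 with KLA and -0.18 with RANKL against 0.35 with poly I:C, 0.21 with IFNβ and 0.12 with IL4. For Hdac5 it was 0.83 with KLA against -0.12 with RANKL, -0.23 with IFNβ and -0.24 with IL4, and for Hdac6 it was 1.16 with KLA and 0.14 with IFNβ against -0.52 with RANKL. For Hdac7 it was 0.33 with KLA against -0.35 with poly I:C, -0.17 with IFNβ and -0.24 with IL4, and for Hdac10 1.56 with KLA and 0.63 with poly I:C against -0.34 with RANKL. Smaller pairs were 0.41 with poly I:C and -0.10 with IFNβ for Hdac4, and 0.45 with poly I:C and -0.20 with IL4 for Hdac8.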

How the results depend on the processing

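Of 89 member calls, DESeq2 retained 85 and its size factors 88 in the same direction, and no called value changed sign under any alternative run. Without the filter on low counts all 89 were retained and 1 was added, and without the fold threshold 22 were added. That threshold moved the number of members called to 3 for WT_IFNb and 3 for WT_IL4 against WT_Veh, and for NKO against WT to 1 with vehicle, 2 with RANKL, 3 with poly I:C, 1 with IFNβ and 2 with IL4. With only the compared groups, NKO_PolyIC against WT_PolyIC called 2 members (Hdac10 added, 0.62). For RGFP966_KLA against KLA, DESeq2 called 2 members, Hdac7 (1.07) and Hdac9 (-1.89). It did not call Hdac5 (0.55, below the fold threshold) or Hdac6 (0.62, adjusted p = 0.0823). DESeq2 called 0 members for NKO_IL4 against WT_IL4 and did not call the Pgc1b_flox_Cre and KLA interaction of Hdac6.

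Leaving out 1 library, 63 of 81 calls were made in every refit. Counts ranged from 2 to 4 for RGFP966_KLA against KLA, 0 to 2 for WT_IFNb, 0 to 1 for WT_IL4, and for NKO against WT from 0 to 1 with vehicle, 1 to 2 with RANKL, 0 to 1 with poly I:C and 0 to 1 with IL4. For the interactions of NKO they ranged from 1 to 2 with RANKL and from 0 to 1 with poly I:C. Against other KLA controls, Hdac6 in NKO_KLA was not called with Pgc1b_flox_KLA (0.01) or DMSO_KLA (0.50), and Hdac4 was called with DMSO_KLA (-0.62).

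Deviations of same-numbered libraries correlated at -0.144 to 0.0856, so the numbers were not taken as pairs. With the number as a block, all 81 calls were made again and 0 were added, with 4 members called for RGFP966_KLA against KLA. With the numbers crossed where the correlation was under -0.1, 1 member was called for NKO_RANKL against WT_RANKL, 5 for Pgc1b_flox_KLA and 0 for Pgc1b_flox_Cre_Veh against Pgc1b_flox_Veh. Depth limits Hdac11 (0 to 4 counts per library with KLA in the control sets) and, less so, Hdac8 and Hdac10.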
